A study of Mus musculus with 9 samples.

Results

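The genes described here encode T-type calcium channels (Cacna1g, Cacna1h and Cacna1i), hyperpolarization-activated cyclic nucleotide-gated (HCN) channels (Hcn2 and Hcn4) and Kv3 potassium channels (Kcnc1 and Kcnc2), which serve burst and fast firing of neurons. They are a list of named genes with no threshold on measured values, chosen with earlier results of these data known. All 7 were found by Ensembl identifier among the 14779 genes of the table. Hcn3 and Kcnc4, of the HCN and Kv3 families, are given beside them, which makes 9 genes.

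The 9 libraries come from polyadenylated RNA of mouse hippocampus and form 3 groups of 3, and the design text gives 3 mice per group. CIE+IL17 Ab mice were exposed to ethanol and given an antibody against interleukin 17A, a cytokine of the immune system. CIE+IgG mice were exposed to ethanol and given IgG, the immunoglobulin used as the control for that antibody. Air+IgG mice were kept in air and given IgG. CIE stands for chronic intermittent ethanol exposure. Every group received an antibody or IgG, and the sources used here do not give strain, age, sex, doses or exposure times. The comparisons ask which transcripts differed with the antibody among ethanol-exposed mice, and which differed after ethanol exposure. CIE+IL17 Ab against Air+IgG differs in both ethanol and antibody, and no group received the antibody in air. Comparisons of CIE+IL17 Ab with either IgG group are called antibody comparisons below. The one with Air+IgG cannot tell the antibody from ethanol.

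T-type channels open near the resting potential after a spell of hyperpolarization and carry the calcium current that drives burst firing, best known from thalamic relay neurons. HCN channels open on hyperpolarization and carry the pacemaker current, which sets resting potential and rhythm. Kv3 channels open and close fast at depolarized potentials, which allows short spikes at high rates, as in parvalbumin interneurons and neurons of the thalamic reticular nucleus.

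RefSeq held a sequence before the transcription start for 5 of the 7 genes, with none for Cacna1g and Cacna1h. Windows of the 5 are shown. In the results that follow, 4 of the 5 (Hcn2, Hcn4, Kcnc1 and Kcnc2) had every CIE+IL17 Ab library above every IgG library, while Cacna1i did not. Over all genes, CIE+IL17 Ab libraries lay wholly above those of CIE+IgG in 12.7% and above those of Air+IgG in 17.3%. Within the antibody group the 4 genes differed, with Hcn2 and Kcnc1 highest in replicate 1 and Hcn4 and Kcnc2 in replicate 2. Each window is the 250 bases before a start on GRCm38.p6, written 5′ to 3′ on the gene's strand, and holds no base of an annotated exon. Capitals mark the GC box GGGCGG or its complement CCGCCC, bound by Sp1 and related factors, and in Cacna1i the TCF/LEF core TCAAAG.
Hcn2 (chr10:79716384-79716633, plus strand): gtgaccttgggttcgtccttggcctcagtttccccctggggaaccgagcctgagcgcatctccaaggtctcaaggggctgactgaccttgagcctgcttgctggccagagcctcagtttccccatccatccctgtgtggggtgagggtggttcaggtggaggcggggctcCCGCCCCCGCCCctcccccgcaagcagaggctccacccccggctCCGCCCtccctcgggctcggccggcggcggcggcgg
Hcn4 (chr9:58822699-58822948, plus strand): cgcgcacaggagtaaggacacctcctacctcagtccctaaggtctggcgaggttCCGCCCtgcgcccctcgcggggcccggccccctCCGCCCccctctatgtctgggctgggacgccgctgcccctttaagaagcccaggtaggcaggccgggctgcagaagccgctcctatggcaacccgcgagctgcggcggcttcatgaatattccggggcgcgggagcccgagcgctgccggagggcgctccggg
Kcnc1 (chr7:46396218-46396467, plus strand): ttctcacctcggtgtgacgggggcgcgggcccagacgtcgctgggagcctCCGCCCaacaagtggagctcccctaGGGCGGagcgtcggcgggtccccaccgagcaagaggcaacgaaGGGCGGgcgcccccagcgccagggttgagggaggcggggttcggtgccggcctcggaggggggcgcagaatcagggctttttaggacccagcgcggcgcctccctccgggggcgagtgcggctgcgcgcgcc
Kcnc2 (chr10:112270871-112271120, plus strand): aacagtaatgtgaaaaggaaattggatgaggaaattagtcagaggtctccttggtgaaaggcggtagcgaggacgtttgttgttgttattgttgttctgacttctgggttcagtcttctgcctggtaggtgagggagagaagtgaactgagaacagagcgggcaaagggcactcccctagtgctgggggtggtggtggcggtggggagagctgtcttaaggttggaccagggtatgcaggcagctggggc
Cacna1i (chr15:80286988-80287237, plus strand): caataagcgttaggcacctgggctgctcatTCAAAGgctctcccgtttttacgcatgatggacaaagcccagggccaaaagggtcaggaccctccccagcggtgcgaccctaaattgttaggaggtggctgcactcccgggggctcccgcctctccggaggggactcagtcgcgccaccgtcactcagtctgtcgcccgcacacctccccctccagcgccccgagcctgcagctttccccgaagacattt

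The windows of Kcnc1, Hcn4 and Hcn2 were GC-rich, at 74.4%, 71.2% and 70.4% GC, against a median of 52.4% over all 32851 windows of the RefSeq table. On both strands together, Hcn2 and Kcnc1 held 3 GC boxes each and Hcn4 held 2, and 32.7% of all windows held at least 1. The Kcnc2 window shown had 52.8% GC and no GC box, and the window of the most upstream Kcnc2 start held 1. Cacna1i had 62.4% GC, no GC box and 1 TCF/LEF core, which 13.8% of all windows held. None of these windows held the TATA box letters TATAAA, which were in 12.4% of all windows. These matches describe letters only, and motifs that overlap were each counted. A relation of these letters to the levels of the genes was not tested.

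Library totals ranged from 7372658 to 11894628 counts. CIE+IL17 Ab replicate 1 and Air+IgG replicate 2 stood apart with 495056 and 593544 counts of Lars2, against 301 to 2167 in the other 7 libraries. The CIE+IL17 Ab libraries also stood apart in their regional markers. Summed over 11 thalamus markers, they held 1446 to 2829 CPM (counts scaled to library size with TMM), against 341 to 696 CPM in CIE+IgG libraries and 311 to 371 CPM in Air+IgG libraries. Summed over 7 markers of CA1 pyramidal neurons, they held 100.6 to 199 CPM, against 325 to 563 CPM in CIE+IgG libraries and 533 to 622 CPM in Air+IgG libraries. All 7 CA1 markers were detected in every library, and the label of hippocampus was kept, with these values set beside the results they move with.

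Of the 7 channel genes, 4 rose in CIE+IL17 Ab hippocampus relative to CIE+IgG hippocampus (Cacna1g, Hcn2, Hcn4 and Kcnc2), and none fell. Relative to Air+IgG hippocampus the same 4 genes and Kcnc1 rose, and none fell. Cacna1h and Cacna1i passed the test in neither comparison, and none of the 7 passed between CIE+IgG and Air+IgG. Calls are at an adjusted p under 0.05 in edgeR's quasi-likelihood test, adjusted over 14696 genes, and all 7 genes passed the filter on low counts. In the first comparison 3.18% of all genes were called, 1.78% higher and 1.41% lower. In the second 13.5% were called, 6.83% higher and 6.71% lower. The comparisons share the CIE+IL17 Ab libraries, so they are not independent of each other.

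**Figure D1:**
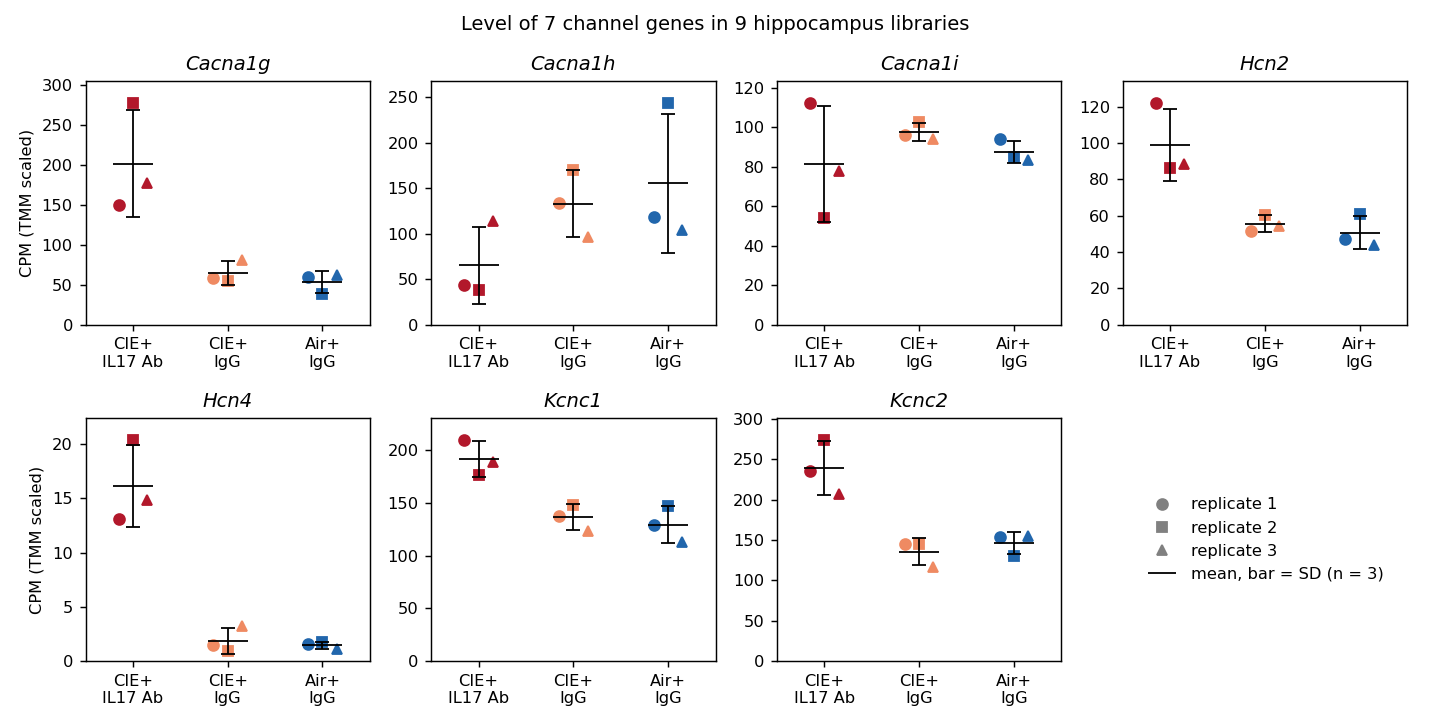
Level of each of the 7 channel genes in CPM (linear axes from 0) in the 3 groups, with 1 point per library, the mean as a horizontal line and the SD as the bar (n = 3). Cacna1g, Hcn2, Hcn4, Kcnc1 and Kcnc2 have all 3 CIE+IL17 Ab libraries above all 6 IgG libraries, while Cacna1h and Cacna1i overlap.

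Among the T-type genes, Cacna1g (chr11:94408391-94474198 on GRCm38, as for all genes here), which encodes the alpha-1G pore subunit, stood out. It was at 149.8, 277 and 178 CPM in CIE+IL17 Ab replicates 1, 2 and 3, at 58.3, 54.7 and 81.4 CPM in CIE+IgG replicates 1, 2 and 3, and at 60.02, 37.9 and 62.5 CPM in Air+IgG replicates 1, 2 and 3. All 3 antibody libraries lay above every IgG library, and replicate 2 was the highest of them. The group means were 202 ± 67.1 CPM in CIE+IL17 Ab, 64.8 ± 14.5 CPM in CIE+IgG libraries and 53.5 ± 13.5 CPM in Air+IgG (SD, n = 3 each). The log2 fold change was 1.64 (SE 0.28) against CIE+IgG, or 3.11-fold, with an edgeR adjusted p of 0.0318. Against Air+IgG it was 1.91 (SE 0.28), or 3.77-fold, with an edgeR adjusted p of 0.0119.

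Cacna1h (chr17:25374285-25433783), which encodes the alpha-1H subunit, ran the other way in its means without passing the test. It was at 43.9, 37.96 and 114 CPM in CIE+IL17 Ab replicates 1, 2 and 3, at 133, 170.2 and 96.3 CPM in CIE+IgG and at 119, 244 and 104 CPM in Air+IgG libraries in the same replicate order. The groups overlapped, because CIE+IL17 Ab replicate 3 lay above the lowest library of each IgG group. The log2 fold change was -1.03 (SE 0.48, edgeR adjusted p 0.250) against CIE+IgG and -1.25 (SE 0.48, edgeR adjusted p 0.117) against Air+IgG. Without CIE+IL17 Ab replicate 3 these values became -1.71 and -1.93, with edgeR adjusted p of 0.0445 and 0.0224, and DESeq2 called the second one on all libraries (adjusted p 0.0275). Without the Lars2-rich libraries, the values were -0.82 and -0.56.

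Cacna1i (chr15:80287238-80398279), the alpha-1I subunit known from the thalamic reticular nucleus, had 112, 54.1 and 77.6 CPM in CIE+IL17 Ab replicates 1, 2 and 3. It had 95.9, 103 and 93.9 CPM in CIE+IgG libraries and 94.0, 85.1 and 83.4 CPM in Air+IgG replicates 1, 2 and 3. The antibody libraries held both the highest and the lowest value of the 9, and their SD of 29.2 CPM compares with 4.60 CPM in CIE+IgG libraries and 5.70 CPM in Air+IgG. The log2 fold change was -0.27 (SE 0.22) against CIE+IgG and -0.11 (SE 0.22) against Air+IgG, with edgeR adjusted p of 0.519 and 0.765.

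The summed T-type level, in CPM per kilobase of exon (CPM per kb, which allows genes of different length to be added), was 30.7 to 37.1 in CIE+IL17 Ab, 27.4 to 33.2 in CIE+IgG and 25.2 to 37.3 in Air+IgG libraries. These ranges overlapped, whereas the shares of Cacna1g and Cacna1h in the sum differed between antibody and IgG libraries. Cacna1g made up 48.2%, 74.5% and 47.3% of the sum in CIE+IL17 Ab replicates 1, 2 and 3, against 16.2% to 29.3% in CIE+IgG and 10.0% to 24.4% in Air+IgG libraries. Cacna1h made up 10.6% to 31.5% in CIE+IL17 Ab, against 36.0% to 52.5% in CIE+IgG and 42.0% to 66.8% in Air+IgG libraries. For both genes the antibody range lay outside both IgG ranges. The Cacna1i share overlapped, at 14.9% to 37.1% in CIE+IL17 Ab, 31.3% to 34.7% in CIE+IgG and 23.1% to 34.5% in Air+IgG libraries. Shares of a library add up to the whole, so a higher Cacna1g share by itself lowers that of Cacna1h, whose CPM overlapped between groups. By share, Cacna1g was the leading T-type transcript in 3 of 3 antibody libraries and Cacna1h in 6 of 6 IgG libraries. In CIE+IgG replicate 3 that lead was narrow, at 36.0% for Cacna1h and 34.7% for Cacna1i.

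**Figure D2:**
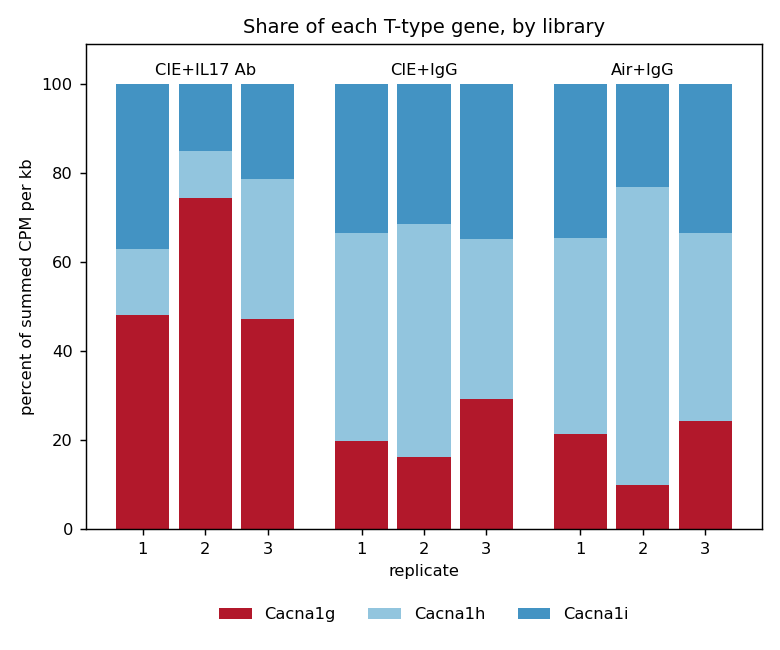
Share of each T-type gene in the summed CPM per kb of the family (percent, stacked to 100) in each of the 9 libraries, grouped as CIE+IL17 Ab, CIE+IgG and Air+IgG. Cacna1g takes 47.3% or more of the T-type sum in the antibody libraries and 29.3% or less in the IgG libraries.

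Hcn4 (chr9:58823412-58863175), the slow pacemaker subunit known from the sinoatrial node and thalamus, had the largest fold change of the 9 genes in both antibody comparisons. It was at 13.1, 20.3 and 14.9 CPM in CIE+IL17 Ab replicates 1, 2 and 3, at 1.504, 0.936 and 3.26 CPM in CIE+IgG and at 1.63, 1.75 and 1.14 CPM in Air+IgG replicates 1, 2 and 3. The values rest on 94 to 260 counts in antibody libraries and on 8 to 35 counts in IgG libraries, so the IgG levels are the least precise of the 7 genes. The groups were far apart, with the lowest antibody library above the highest IgG library. The log2 fold change was 3.05 (SE 0.39, edgeR adjusted p 0.0178) against CIE+IgG, or 8.27-fold, and 3.43 (SE 0.40, edgeR adjusted p 0.0099) against Air+IgG, or 10.8-fold.

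Hcn2 (chr10:79716634-79736108), the faster subunit of thalamic relay neurons that is also widespread in brain, rose less. It was at 122, 86.4 and 88.5 CPM in CIE+IL17 Ab replicates 1, 2 and 3, at 51.6, 60.6 and 54.4 CPM in CIE+IgG and at 47.0, 60.8 and 43.8 CPM in Air+IgG replicates 1, 2 and 3. No antibody library overlapped the IgG libraries. The log2 fold change was 0.83 (SE 0.16, edgeR adjusted p 0.0398) against CIE+IgG and 0.97 (SE 0.16, edgeR adjusted p 0.0132) against Air+IgG.

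Hcn3 also rose in both antibody comparisons. Hcn3, a subunit of low level in hippocampus, was at 14.7, 14.2 and 13.3 CPM in CIE+IL17 Ab replicates 1, 2 and 3, against 6.32 to 7.64 CPM in CIE+IgG libraries and 5.65 to 8.13 CPM in Air+IgG libraries. Its antibody libraries were close together and clear of the rest, with a log2 fold change of 0.99 (SE 0.16, edgeR adjusted p 0.0245) against CIE+IgG and 1.04 (SE 0.16, edgeR adjusted p 0.0119) against Air+IgG.

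Of the Kv3 genes given here, Kcnc2 rose in both antibody comparisons and Kcnc1 in the one against Air+IgG. Kcnc2 (chr10:112271121-112467024), a subunit of fast-spiking and somatostatin interneurons and of thalamic neurons, was at 235, 274 and 207 CPM in CIE+IL17 Ab replicates 1, 2 and 3. It was at 145, 145 and 116 CPM in CIE+IgG and at 153, 131 and 155 CPM in Air+IgG replicates 1, 2 and 3. The antibody libraries were all higher, and the log2 fold change was 0.82 (SE 0.13, edgeR adjusted p 0.0258) against CIE+IgG and 0.71 (SE 0.13, edgeR adjusted p 0.0165) against Air+IgG.

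Kcnc1 (chr7:46396497-46438704), the subunit best known from parvalbumin interneurons, was at 209, 176 and 188 CPM in CIE+IL17 Ab, 137, 148 and 123 CPM in CIE+IgG libraries and 129, 146 and 112 CPM in Air+IgG replicates 1, 2 and 3. The antibody libraries did not overlap either IgG group. The log2 fold change was 0.49 (SE 0.12) against CIE+IgG, which missed the threshold at an edgeR adjusted p of 0.0608, and 0.57 (SE 0.12) against Air+IgG, which passed it at 0.0221. Kcnc1 did pass against CIE+IgG with DESeq2 (adjusted p 0.00733) and in an edgeR fit with a term for the label numbers (adjusted p 0.0251), and its adjusted p was 0.0536 to 0.215 in the other fits, those with 1 library left out included. Kcnc4, a fast-inactivating subunit, overlapped between all groups. It averaged 38.3 ± 22.5, 35.7 ± 17.7 and 43.8 ± 1.82 CPM in CIE+IL17 Ab, CIE+IgG and Air+IgG libraries (SD, n = 3 each).

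**Figure D3:**
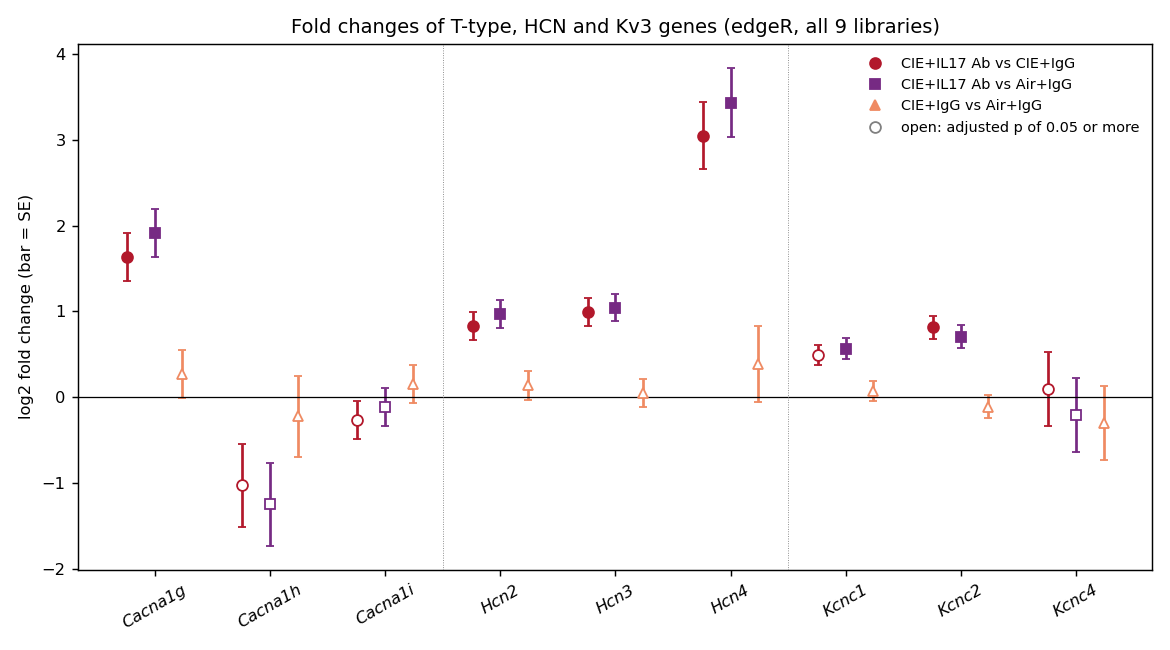
Log2 fold change (vertical axis, bar = SE) of 9 T-type, HCN and Kv3 genes in 3 comparisons, from 1 edgeR fit of all 9 libraries, with filled symbols where the adjusted p is under 0.05. Hcn4 and Cacna1g have the largest values in both antibody comparisons, at 3.05 and 1.64 against CIE+IgG, and all symbols of CIE+IgG against Air+IgG are open.

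The groups did not overlap for 5 of the 7 genes in each antibody comparison, all higher in CIE+IL17 Ab. Over all genes, 12.7% did not overlap in that direction against CIE+IgG and 17.3% against Air+IgG. The median log2 fold change of the 7 genes was 0.82 against CIE+IgG and 0.71 against Air+IgG, beside 0.015 and 0.012 over all genes tested. Because the 7 genes were chosen with earlier results of these data known, the values over all genes give scale only and no test. The signs of Cacna1g, Hcn2, Hcn4, Kcnc1 and Kcnc2 held in each of the 9 fits with 1 library left out and in all other alternatives run, while their calls did not. The number of the 7 genes called against CIE+IgG was 0 when CIE+IL17 Ab replicate 2, CIE+IgG replicate 1 or 2, or Air+IgG replicate 1 or 3 was left out, 3 when CIE+IgG replicate 3 was, and 4 or 5 when any other library was. Against Air+IgG it was 0 when Air+IgG replicate 3 was left out, 3 when CIE+IL17 Ab replicate 2 or Air+IgG replicate 1 was, and 4 to 6 when any other library was.

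A fit of only the CIE+IL17 Ab and CIE+IgG libraries called 0 of the 7 genes between them, and the 6 libraries with label numbers 54 to 60 alone called 0 in either antibody comparison. In those 6 libraries, the log2 fold changes against CIE+IgG were 1.53 for Cacna1g, 0.90 for Hcn2, 3.49 for Hcn4, 0.48 for Kcnc1 and 0.60 for Kcnc2. Without the Lars2-rich libraries, the 4 calls against CIE+IgG stood, with log2 fold changes of 1.81 for Cacna1g, 0.66 for Hcn2, 3.17 for Hcn4 and 0.83 for Kcnc2. Against Air+IgG, 4 calls stood and Kcnc2 missed the threshold, with a log2 fold change of 0.64 and an edgeR adjusted p of 0.0521.

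For CIE+IgG against Air+IgG, edgeR called 0 of the 7 genes, with 0% of all genes called, and 0 of the 7 had an unadjusted p under 0.05, against 2.76% of all genes. DESeq2 and limma-voom also called 0 of the 7. The groups overlapped for every one of the 9 genes, where 9.44% of all genes did not overlap. Among the 7, the log2 fold changes ran from -0.22 (SE 0.47) for Cacna1h to 0.38 (SE 0.44) for Hcn4, and Kcnc1 had 0.07 (SE 0.12). In CPM, Cacna1g averaged 64.8 ± 14.5 in CIE+IgG and 53.5 ± 13.5 in Air+IgG libraries, and Kcnc2 averaged 135 ± 16.7 in CIE+IgG and 146 ± 13.5 in Air+IgG libraries (SD, n = 3 each). The SEs of Cacna1h and Hcn4 leave room for sizeable differences of either sign.

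Ranked by mean CPM per kb, Kcnc2 was the highest of the 9 genes in each group, at 33.4 ± 4.68 in CIE+IL17 Ab, 19.0 ± 2.34 in CIE+IgG and 20.5 ± 1.89 in Air+IgG libraries (SD, n = 3 each). Kcnc2 libraries overlapped those of the next gene in each group, which was Hcn2 in CIE+IgG and Cacna1h in Air+IgG. The highest Cacna1h library of Air+IgG, at 24.9, lay above every Kcnc2 library of that group, which reached 21.7. In CIE+IL17 Ab libraries Hcn2 came next at 31.0, overlapping Kcnc2, and then Kcnc1 at 20.2 and Cacna1g at 19.9, which overlapped each other. Every Kcnc1 library lay below the Hcn2 range, while the highest Cacna1g library, at 27.4, reached into it. Kcnc4 at 10.5, Cacna1i at 8.24 and Cacna1h at 6.69 overlapped from each to the next, and Hcn3 at 3.39 and Hcn4 at 2.63 closed the order and overlapped. In CIE+IgG libraries Hcn2 at 17.4 lay clear above Kcnc1 at 14.4, and Cacna1h at 13.6 overlapped both. Cacna1g stood at 6.39 CPM per kb there, the seventh of the 9, and Hcn4 was last at 0.31, below Hcn3 at 1.70. In Air+IgG libraries Cacna1h at 15.9, Hcn2 at 15.8 and Kcnc1 at 13.7 overlapped, Cacna1g stood at 5.28, and Hcn4 was again last at 0.25.

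The thalamus markers moved with the channel genes that rose. Of 11 thalamus markers, 9 rose in CIE+IL17 Ab relative to CIE+IgG hippocampus and 10 relative to Air+IgG hippocampus, and none fell. Over all genes, 1.78% rose and 1.41% fell relative to CIE+IgG, and 6.83% rose and 6.71% fell relative to Air+IgG. These shares stand beside the counts of all marker lists below. The marker lists were chosen with earlier results of these data known, so the shares give scale only. Tcf7l2, a transcription factor that defines thalamic and habenular neurons, was at 176, 231 and 126 CPM in CIE+IL17 Ab, 5.58, 6.55 and 27.03 CPM in CIE+IgG libraries and 6.39, 6.86 and 5.30 CPM in Air+IgG replicates 1, 2 and 3. Of 11 habenula markers, 9 and 10 rose in the same comparisons, and their sum was 220 to 442 CPM in CIE+IL17 Ab, 72.2 to 97.3 CPM in CIE+IgG libraries and 74.0 to 98.8 CPM in Air+IgG libraries. Pou4f1, a habenular transcription factor, was at 0 counts in replicates 1 and 2 of CIE+IgG and in replicates 1 and 2 of Air+IgG, and no thalamus marker was at 0 in any library.

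Within the antibody group, replicate 2 had the highest thalamus sum (2829 CPM, against 1446 and 1778 CPM in replicates 1 and 3) and the highest Cacna1g, Hcn4 and Kcnc2. The same library had the lowest Cacna1h, Cacna1i, Hcn2 and Kcnc1 of that group. Within the CIE+IgG group, replicate 3 had the highest thalamus sum, at 696 CPM against 416 and 341 CPM in replicates 1 and 2. It also had the highest Cacna1g and Hcn4, but the lowest Kcnc1 and Kcnc2. Its sum of 10 striatum markers was the highest of that group as well, at 1292 CPM against 272 and 278 CPM. In bulk RNA, more cells of a type and more RNA per cell cannot be told apart, and the part of tissue makeup in the channel results was not tested.

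**Figure D4:**
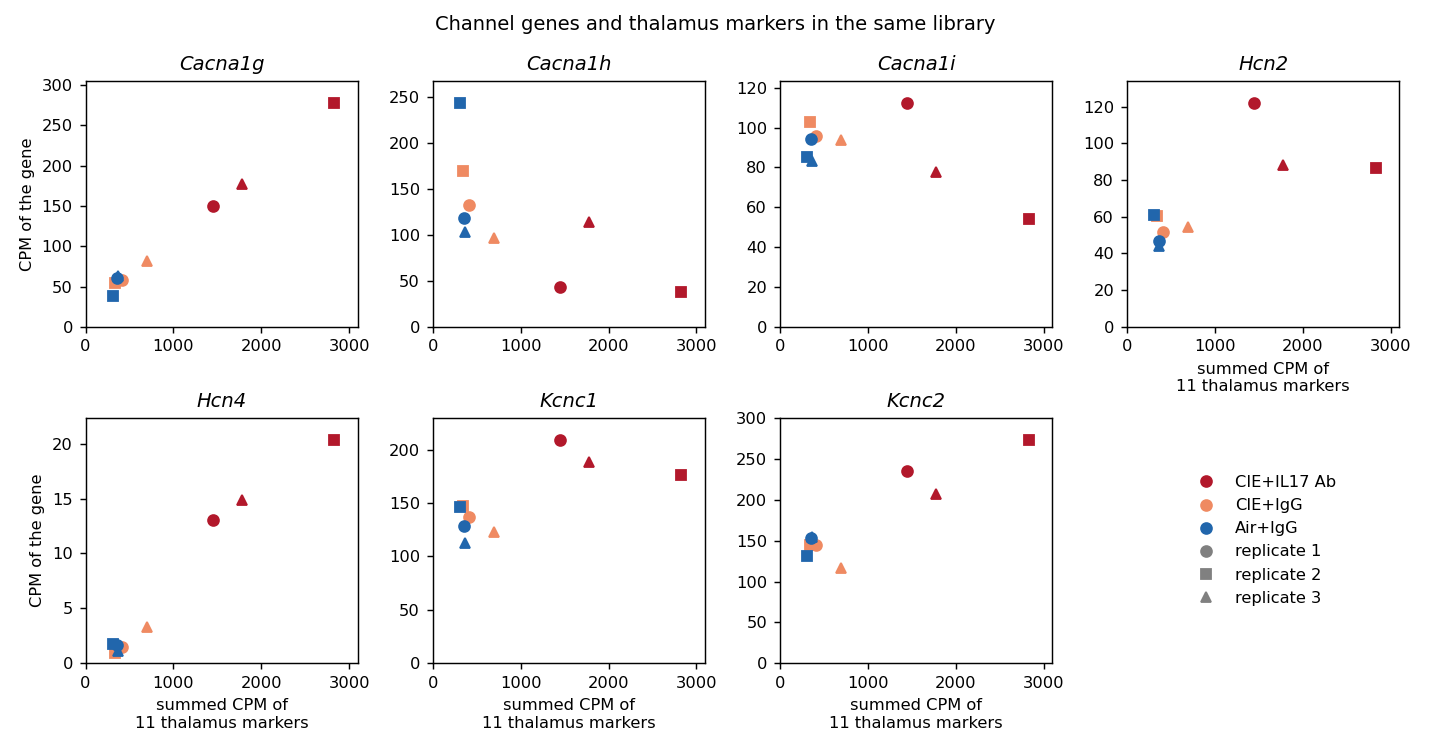
CPM of each of the 7 channel genes (vertical axes, linear from 0) against the summed CPM of 11 thalamus markers (horizontal axis) in the same library, coloured by group with 1 symbol per replicate. Cacna1g and Hcn4 run from the IgG libraries, at 311 to 696 CPM of markers, up to CIE+IL17 Ab replicate 2 at 2829 CPM, while Hcn2 and Kcnc1 are highest in CIE+IL17 Ab replicate 1.

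Markers of other cells of the region were read in the same way. The sum of 5 thalamic reticular nucleus markers was 92.3 to 227 CPM in CIE+IL17 Ab, 88.8 to 244 CPM in CIE+IgG libraries and 54.2 to 117 CPM in Air+IgG libraries, and 0 of the 5 were called relative to CIE+IgG. Relative to Air+IgG, 1 of the 5 rose, the transcription factor Six3, with a log2 fold change of 2.96 (edgeR adjusted p 0.0388). The sum of 10 GABA interneuron markers was 677 to 1642 CPM in CIE+IL17 Ab, 909 to 1274 CPM in CIE+IgG libraries and 780 to 1004 CPM in Air+IgG libraries. The highest of these was CIE+IL17 Ab replicate 1, where Hcn2, Kcnc1 and Cacna1i were also highest. In that library Syt2, a synaptotagmin of fast synapses, was at 449 CPM, against 30.7 to 74.0 CPM in the other 8 libraries, and Pvalb was at 76.3 CPM, against 13.2 to 24.4 CPM. The rest of the list was mixed in that library. Gad1, Gad2 and Sox6 were not low there, at 419, 363 and 45.7 CPM. Lhx6, a transcription factor of interneurons, was at 0.56 CPM there and at 3.68 and 8.12 CPM in CIE+IL17 Ab replicates 2 and 3. It was at 11.7 to 15.2 CPM in the IgG libraries. Of the 10, 0 rose and 1 fell in each antibody comparison. That gene was Sst, the neuropeptide somatostatin, at 43.6, 23.3 and 44.0 CPM in CIE+IL17 Ab replicates 1, 2 and 3, against 66.8 to 92.1 CPM in CIE+IgG and 79.5 to 101.5 CPM in Air+IgG libraries (log2 fold changes -1.13 and -1.32, edgeR adjusted p 0.0461 and 0.0156). Of 7 CA1 markers, 4 fell relative to CIE+IgG and 5 relative to Air+IgG. The sum of 7 markers of dentate gyrus granule cells was 89.1 to 385 CPM in CIE+IL17 Ab, with the lowest value in replicate 1. It was 269 to 593 CPM in CIE+IgG libraries and 365 to 907 CPM in Air+IgG libraries. Of the 7 granule cell markers, 0 were called in either comparison. Relative to CIE+IgG, 6 were below 0, with a median log2 fold change of -1.21. Relative to Air+IgG, 7 were below 0, with a median of -1.49. For CA2 and CA3 pyramidal neurons the sum of 6 markers was 271 to 348 CPM in CIE+IL17 Ab, 264 to 335 CPM in CIE+IgG libraries and 263 to 303 CPM in Air+IgG libraries, with Iyd at 0 in CIE+IL17 Ab replicate 1. Its members moved in both directions, with 0 rising and 1 falling (Grik4) relative to CIE+IgG, and 2 rising (Pcp4 and Amigo2) and 2 falling (Grik4 and Nectin3) relative to Air+IgG. Pcp4 alone held 147 to 191 CPM of the sum in CIE+IL17 Ab, against 62.6 to 124 CPM in CIE+IgG and 57.6 to 72.6 CPM in Air+IgG libraries.

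Non-neuronal and striatal sums varied in other ways. Choroid plexus markers summed to 87.7 to 7167 CPM in CIE+IL17 Ab, 2982 to 5628 CPM in CIE+IgG libraries and 478 to 3735 CPM in Air+IgG libraries. Striatum markers reached 825 CPM in CIE+IL17 Ab replicate 3 and 1292 CPM in CIE+IgG replicate 3, against 226 to 303 CPM in the other 7 libraries. Oligodendrocyte markers were at 6087 to 7436 CPM in CIE+IL17 Ab, 4550 to 7223 CPM in CIE+IgG libraries and 3983 to 4530 CPM in Air+IgG libraries, and 7 of 8 rose in CIE+IL17 Ab relative to Air+IgG. Astrocyte sums (1184 to 1416, 1338 to 1452 and 1348 to 1377 CPM) and microglia sums (236 to 248, 301 to 308 and 280 to 326 CPM) in CIE+IL17 Ab, CIE+IgG and Air+IgG libraries had narrower ranges. The microglia sums of CIE+IL17 Ab lay below those of every IgG library. Of 5 microglia markers, 2 fell relative to CIE+IgG and 3 relative to Air+IgG, and all 5 were below 0 in both comparisons.

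The genes whose log2 CPM followed each channel gene most closely over the 9 libraries were named as a description, since the points share groups, library depth and tissue makeup. For Hcn4 the 3 closest were Phf1 (Pearson r 0.990), Ampd3 (0.987) and the thalamic factor Tcf7l2 (0.985). For Cacna1g they were Rps6ka1 (0.995), Osbpl5 (0.990) and BC017158 (0.990), and for Cacna1h Magi2 (0.992), Camk2b (0.992) and Fam84a (0.986). Camk2b, a calcium/calmodulin-dependent kinase subunit of excitatory neurons, was at 471, 436 and 814 CPM in CIE+IL17 Ab replicates 1, 2 and 3, and so was low in the same antibody libraries as Cacna1h. For Cacna1i they were Stac2 (0.989), Mark1 (0.954) and Mrpl3 (0.950), and for Hcn2 4931422A03Rik (0.980), Zfhx4 (0.975) and Rgs8 (0.971). For Kcnc1 they were Slc46a3 (0.986), Apc2 (0.976) and Pcsk1n (0.976), and for Kcnc2 Sema4c (0.985), Nmnat2 (0.979) and Nell1 (0.972).

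Among the channel genes themselves, levels were compared over the 9 libraries. Cacna1g and Hcn4 ran together (Pearson r 0.94), as did Hcn2 and Kcnc1 (0.97), whereas Cacna1g with Hcn2 and with Kcnc1 gave 0.75 and 0.70. Cacna1g and Cacna1h ran in opposite directions (r = -0.85), while Cacna1i followed Cacna1h only weakly (0.34). Hcn3 ran with both Cacna1g and Hcn4 (0.95 each). These values describe 9 points in 3 groups and carry no test.

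Other channel genes and their partners were read from 7 further lists. Of their 56 genes, 2 rose and 1 fell relative to CIE+IgG, and 5 rose and 11 fell relative to Air+IgG, with a median log2 fold change of -0.09 and -0.16. Over all genes, 1.78% rose and 1.41% fell relative to CIE+IgG, and 6.83% rose and 6.71% fell relative to Air+IgG. The same shares stand beside the counts of single lists below. Kcnk3, an acid-sensitive leak potassium channel, averaged 18.4 ± 3.07 CPM in CIE+IL17 Ab and 8.52 ± 1.40 CPM in CIE+IgG libraries (SD, n = 3 each; log2 fold change 1.11, edgeR adjusted p 0.0261). Kcna6, a Kv1 subunit, averaged 142 ± 9.94 CPM in CIE+IL17 Ab and 96.6 ± 5.40 CPM in CIE+IgG libraries (log2 fold change 0.56, edgeR adjusted p 0.0310). Kcnq5, a subunit of the M-type potassium current, fell, with 50.4 ± 16.7 CPM in CIE+IL17 Ab and 134 ± 23.8 CPM in CIE+IgG libraries (log2 fold change -1.41, edgeR adjusted p 0.0258). All 3 were also called, in the same direction, relative to Air+IgG.

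Among genes tied to T-type and other calcium channels, Klhl1, a protein that binds T-type channels, averaged 21.4 ± 22.8 CPM in CIE+IL17 Ab and 1.78 ± 0.87 CPM in Air+IgG libraries (SD, n = 3 each; log2 fold change 3.52, edgeR adjusted p 0.0335). Its SD in the antibody group was as large as its mean, and against CIE+IgG it missed the threshold at 0.0828. Of 8 auxiliary subunits, 2 rose relative to Air+IgG (Cacna2d2 by 2.16 and Cacna2d4 by 1.48 on the log2 scale) and 3 fell, among them Cacna2d1 with -0.86 and Cacnb1 with -0.72. Cacna1e, the R-type pore subunit, was the 1 gene of 5 high-voltage-activated subunits that fell, at 540 ± 206 CPM in CIE+IL17 Ab and 1052 ± 160 CPM in Air+IgG libraries (log2 fold change -0.96). None of the 8 auxiliary and 5 high-voltage-activated subunits was called relative to CIE+IgG, where the smallest p of each list belonged to Cacnb1 (log2 fold change -0.77, edgeR adjusted p 0.0503) and Cacna1e (-0.82, edgeR adjusted p 0.1003).

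Of 18 other Kv genes, 1 rose and 5 fell relative to Air+IgG, the falls including the silent subunits Kcnv1 (log2 fold change -2.21) and Kcns1 (-1.24). Of 8 sodium channel genes, 2 fell relative to Air+IgG, Scn2a with -0.58 and the beta subunit Scn3b with -1.24. None of the 6 HCN partner proteins was called in any comparison, and the smallest p among them against CIE+IgG was that of Vapb, a membrane-contact protein, with a log2 fold change of 0.31 and an edgeR adjusted p of 0.123.

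**Figure D5:**
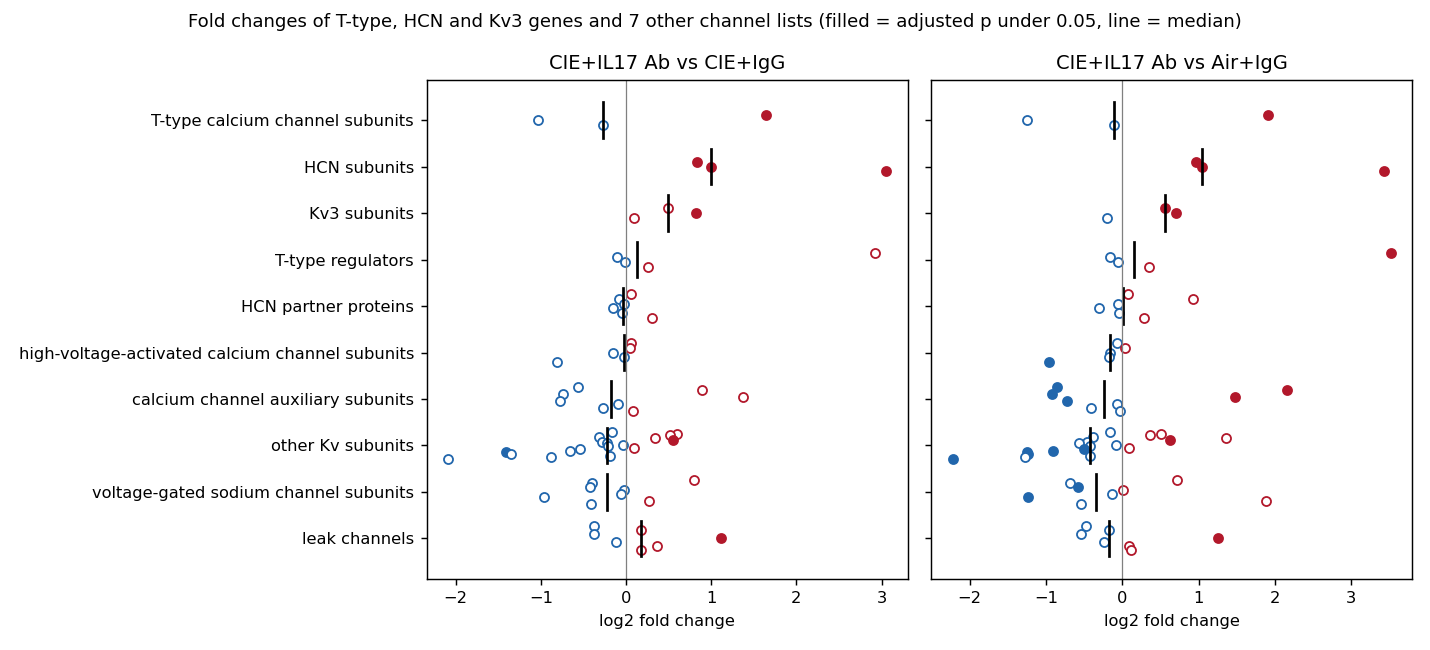
Log2 fold changes (horizontal axis) of T-type, HCN (Hcn2, Hcn3 and Hcn4) and Kv3 (Kcnc1, Kcnc2 and Kcnc4) genes and 7 other channel lists in CIE+IL17 Ab relative to CIE+IgG (left) and Air+IgG (right), with 1 circle per gene, filled where the adjusted p is under 0.05, and a vertical line at each list's median. Filled circles of these HCN and Kv3 genes all lie right of 0, while those of the other Kv and sodium channel lists relative to Air+IgG lie mostly left of 0.

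Between CIE+IgG and Air+IgG, 0 of the 56 genes were called by edgeR. The smallest p of their lists belonged to Kcne2, Wwp1, Cacna1d, Cacna2d2, Kcnb2, Scn4b and Kcnk10. Cacna2d2 averaged 72.3 ± 49.9 CPM in CIE+IgG libraries and 30.02 ± 8.80 CPM in Air+IgG libraries (SD, n = 3 each; log2 fold change 1.27, edgeR adjusted p 0.9997). Scn4b, a sodium channel beta subunit of striatal neurons, averaged 97.5 ± 110.4 CPM in CIE+IgG libraries and 32.1 ± 8.47 CPM in Air+IgG libraries, and the striatum sum was highest in CIE+IgG replicate 3. Kcne2, a subunit abundant in choroid plexus that can also join HCN channels, averaged 18.2 ± 6.56 CPM in CIE+IgG libraries and 8.99 ± 7.20 CPM in Air+IgG libraries.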

How the data were processed

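Estimated counts were made by the authors with RSEM 1.3.0 after STAR 2.5.1a on GRCm38, per the submitters' processing notes, and deposited as 1 table with no scaling between libraries. The sources used here do not state the annotation release, any earlier filter or the strand setting of the counting, and the kit keeps strand per the labels' protocols. Decimals occur in 27.1% of values, since RSEM divides reads among similar genes, whose values are therefore uncertain. Cacna1h and Hcn3 each overlap a gene on the other strand, and none of those partners is in the table.

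Symbols, coordinates and exon lengths came from GENCODE M21 on GRCm38, which matched 14628 of 14779 identifiers. Groups follow the sample titles. Counts were rounded and filtered with filterByExpr by group (minimum count 10), which left 14696 genes. All 9 libraries entered 1 fit with TMM scaling in edgeR 4.0.16 (R 4.3.3), tested by quasi-likelihood F-test with robust=TRUE on 6 residual degrees of freedom. Benjamini-Hochberg adjustment covered all tested genes of a comparison, with calls under 0.05, and p-values measure the spread among these mice only. Each SE was taken as the absolute log2 fold change over the root of F. CPM are TMM-scaled, and log2 CPM for correlations used a prior count of 2.

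Alternatives were DESeq2 size factors in place of TMM, tests with DESeq2 1.42.0 and with limma-voom 3.58.1, other filters, fits of fewer libraries, robust=FALSE, a term for the label numbers (37 to 39 against 54 to 60, of unstated meaning), a replicate block, a threshold of 0.1, and leaving out single libraries. Shares without length scaling were added after seeing the data. The fits were tested on simulated data.

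The 7 genes, the pathway lists and the marker lists were chosen with earlier results of these data known. The genes named are the 7 with Hcn3 and Kcnc4, of each other list the called members with the smallest p (at most 4) or else the 1 with the smallest p, and the 3 genes most like each of the 7. Some genes that this rule took are not reported here. Members of the marker lists were named after their values were seen.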

Additional observations from a re-analysis of the deposited data

How the results depend on the processing

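Adjusted p-values near 0.05 rest on single libraries here, with 3 mice per group, and the Hcn4 level in IgG libraries rests on 8 to 35 counts. Same-numbered libraries did not deviate together (correlations of their deviations from -0.27 to 0.249), so they share a number only. With the replicate block, 0 channel genes were called against CIE+IgG and 5 against Air+IgG, and 14 and 571 of all genes. The signs of Cacna1g, Hcn2, Hcn4, Kcnc1 and Kcnc2 held in both antibody comparisons under all alternatives run. Of the gene values under alternatives, 900 kept their sign and their side of the threshold, 175 lost a call, 20 gained one and 19 changed sign. The strict filter removed Hcn4. The cause of these changes was not tested.

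Against CIE+IgG, all genes called numbered 468 as reported, 1481 with DESeq2, 1293 at an adjusted p under 0.1, 776 with a term for the label numbers, 1 in the label numbers 54 to 60 alone, 1 in a fit of only those groups, and 0 to 1313 with 1 library left out. The channel genes called were 0 in the label numbers 54 to 60, 0 in a fit of only those groups and 0 to 5 with 1 library left out. Against Air+IgG, all genes called numbered 1990 as reported, 3453 at an adjusted p under 0.1, 1192 in a fit of only those groups, 2 in the label numbers 54 to 60, 1067 without the Lars2-rich libraries and 0 to 2305 with 1 library left out. The channel genes called were 0 in the label numbers 54 to 60 and 0 to 6 with 1 library left out. Between CIE+IgG and Air+IgG, 6 genes were called with DESeq2, none of them a channel gene, and 0 with each library left out.

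Sign changes were limited to values that were not called. In the label numbers 54 to 60 alone, log2 fold changes became 0.080 for Cacna1i and 0.080 for Kcnc4 against Air+IgG in the antibody group, and between CIE+IgG and Air+IgG -0.45 for Hcn4, 0.033 for Kcnc2, -0.031 for Hcn3, 0.0025 for Kcnc4 and -0.0037 for Scn4b. Without the Lars2-rich libraries, they became 0.26 for Cacna1h and -0.059 for Hcn3 between CIE+IgG and Air+IgG, and -0.49 for Kcnc4 in the antibody group against CIE+IgG. With 1 library left out, the values between CIE+IgG and Air+IgG ran from -0.44 to 0.25 for Cacna1h, -0.27 to 0.69 for Hcn4, -0.015 to 0.17 for Kcnc1 and -0.067 to 0.20 for Hcn3. In the antibody group they ran from -0.49 to 0.55 for Kcnc4 against CIE+IgG, and from -0.41 to 0.11 for Cacna1i and -0.79 to 0.051 for Kcnc4 against Air+IgG.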
